A study of Mus musculus with 16 samples.

Results

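Livers of 5-week-old male mice lacking SHP (Nr0b2) were compared with livers of age-matched male wild-type mice on Illumina mouse Ref-8 bead arrays, which read total RNA with 24613 probes besides controls. The comparison rests on 2 SHP-/- arrays and 2 wild-type arrays, which lay on the same slide. Probes entered when their detection p, which ranks a probe against the array's negative controls, was under 0.01 on both arrays of either group. That held for 9975 of 24613 probes (40.5%), of which 8931 were detected on all 4 arrays, 734 on both arrays of SHP-/- mice but not of wild type, and 310 on both arrays of wild type but not of SHP-/- mice. Of the 9975 probes 8859 had 1 gene symbol, and the brightest stood for its gene, which gave 7424 of the 15967 genes named on the array.

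The SHP-/- mice lacked both Nr0b2 alleles on a C57BL/6 background reached by backcrossing. The wild-type C57BL/6 mice came from a commercial supplier, so genotype and origin of the animals cannot be told apart. Both groups were given normal chow under a 12-hour cycle of light and dark. The study also held FXR-/- mice (Nr1h4 deleted) and FXR-/-SHP-/- double knockouts, bred from both congenic knockout lines, and all 4 genotypes at 3 weeks of age, with 2 arrays in each of 8 groups. Arrays of a group were numbered as replicates with no statement that they came from separate animals, and the p-values given here cover no more than the spread of these arrays, which may be technical.

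SHP is an atypical nuclear receptor: it has a ligand-binding fold but no DNA-binding domain, and it represses other receptors by binding them. In liver, bile acids activate FXR, FXR induces SHP, and SHP curbs LRH-1 (Nr5a2) and HNF4-alpha at the genes for bile acid synthesis, chief among them Cyp7a1, the rate-limiting enzyme. SHP has also been tied to cholesterol, glucose and drug metabolism in mouse liver.

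The deletion could not be checked on these arrays, because the only Nr0b2 probe was detected on none of the 16 arrays, with signals of 28.5 to 36.7. Transcripts of hepatocytes marked the tissue as labelled. All 12 measured hepatocyte genes were bright, none of them passed the test, and their summed signal came to 109008 and 112203 in wild type against 111178 and 115089 in SHP-/- mice. Detected probes numbered 9739 and 9762 on the wild-type arrays and 10076 and 10341 on the SHP-/- arrays. Duplicates differed by 1.26 (wild type) and 1.28 (SHP-/-) bead standard errors, given as the SD over probes, whereas an SHP-/- array and a wild-type array differed by 3.00 to 3.05.

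Loss of SHP changed the level of 698 of 7424 genes (9.4%) at an adjusted p under 0.05, 390 upward (5.25%) and 308 downward (4.15%). These shares over all genes are the background for each list count below. Most changes were small: the median size among them was 0.55 on the log2 scale, 395 were under 1.5-fold, and 88 (1.19%) reached 2-fold, of which 59 rose (0.795%) and 29 fell (0.391%). The median over all genes tested was -0.01. These values came from a moderated test of limma on log2 intensities with Benjamini-Hochberg adjustment over all 9975 probes, fitted to all 16 arrays. Errors below are standard errors of the fit with 2 arrays a group. Leaving out 1 library moved the count of changed genes to 412 and 406 without wild-type replicate 1 and 2, and to 395 and 411 without SHP-/- replicate 1 and 2.

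Among the genes of bile acid synthesis, Cyp7a1 stood out. It had log2 intensities of 8.55 and 8.72 in wild type and of 9.97 and 10.06 in SHP-/- livers. The groups did not overlap, and the rise was 1.38 ± 0.10, or 2.61-fold (adjusted p = 2.78e-08). Cyp8b1, the sterol 12-alpha-hydroxylase that makes cholic acid, stood at 12.63 and 12.61 in wild type and 12.99 and 12.90 in SHP-/- mice. Its smaller difference of 0.32 ± 0.08 (adjusted p = 0.0216) passed the test with all arrays and lost it when any of the 4 arrays was left out, with adjusted p up to 0.182 over the alternatives. The other 11 of 13 measured genes of synthesis and conjugation did not pass. Among these, Cyp7b1 and Cyp27a1 of the acidic pathway differed by -0.34 and -0.22, and the conjugating enzymes Baat and Slc27a5 by -0.18 and -0.14. The list's median of -0.14 lay close to that of all genes.

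Among 12 measured bile acid transporters, 2 rose and 1 fell. Slc51b, a subunit of the basolateral exporter OST, was not detected on either wild-type array and was at least 1.20-fold higher in SHP-/- livers (adjusted p = 0.000636). It entered only through the SHP-/- arrays, so its direction was fixed by the filter and is no support. Abcb4, the canalicular phospholipid flippase, rose by 0.33 ± 0.07 (adjusted p = 0.00633), and Slco1a4, a sinusoidal uptake carrier, fell by 0.59 ± 0.15 (adjusted p = 0.0205). The call of Abcb4 was lost without wild-type replicate 1 or either SHP-/- array (adjusted p up to 0.0624), and that of Slco1a4 without any of the 4 arrays (up to 0.174). Abcb11, the bile salt export pump, differed by 0.18 and Slc10a1, the main uptake carrier, by 0.05, and neither passed. Among all genes 5.25% rose and 4.15% fell. Of 17 measured genes reported as FXR targets 4 rose, Slc51b with its direction fixed by the filter among them, and none fell. Besides Slc51b and Abcb4 these were Vldlr, the VLDL receptor (1.02 ± 0.13, adjusted p = 2.21e-05), and Osgin1, an oxidative stress-induced growth inhibitor (0.53 ± 0.10, adjusted p = 0.00103). Nr1h4, the gene of FXR itself, stood at 10.55 and 10.60 in wild type and 11.18 and 11.03 in SHP-/- livers, a rise of 0.53 ± 0.11 (adjusted p = 0.00267), which was not called without SHP-/- replicate 1 (adjusted p = 0.0613).

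**Figure D1:**
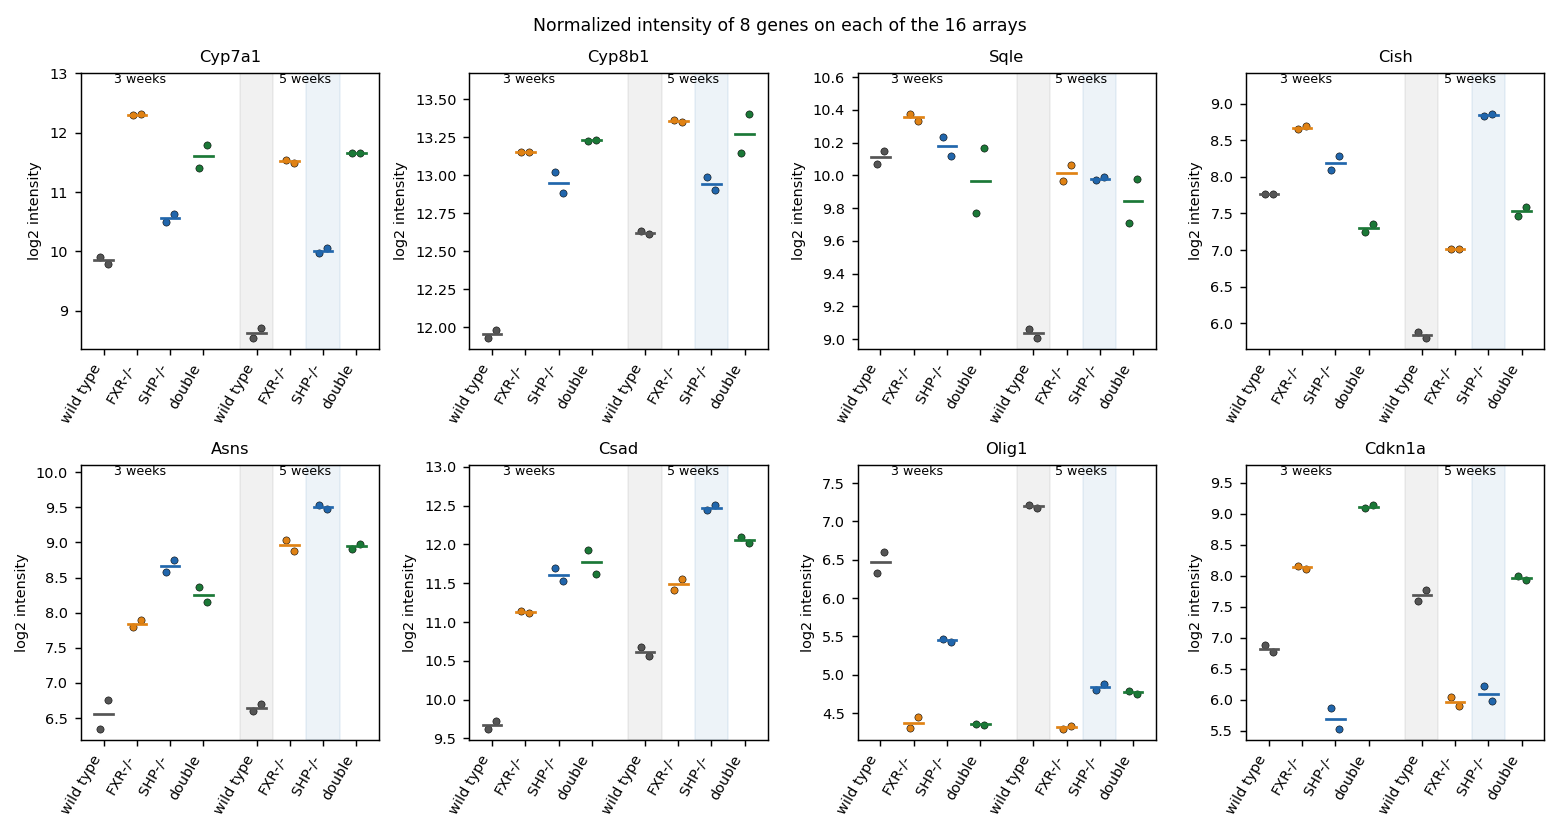
Normalized log2 intensity (vertical axis) of 8 genes on each of the 16 arrays, grouped by genotype and age, with points for arrays and bars for group means; the 5-week wild-type and SHP-/- groups are shaded. Cyp7a1, Cish, Asns and Csad were higher on both SHP-/- arrays of 5-week mice than on both wild-type arrays, Olig1 and Cdkn1a were lower, and for Sqle the 5-week wild-type arrays were the lowest of all 8 groups.

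Genes of cholesterol synthesis moved together. Of 15 measured genes of the pathway 10 rose, none fell and 14 had a positive difference, with a median of 0.50 against -0.01 over all genes. The largest rises were those of Msmo1 and Sqle, of the late, sterol-forming steps, although other late steps rose less or did not pass. Msmo1, the sterol C4-methyl oxidase, went from 10.56 and 10.66 to 11.60 and 11.59, a rise of 0.99 ± 0.11 (adjusted p = 4.2e-06). Sqle, the squalene epoxidase, went from 9.06 and 9.01 to 9.97 and 9.99, a rise of 0.95 ± 0.11 (adjusted p = 8.02e-06). In both genes the SHP-/- arrays lay well above the wild-type arrays and the duplicates lay close together. The early, mevalonate-forming steps rose as well, with Hmgcs1, the HMG-CoA synthase, at 12.48 and 12.38 in wild type against 13.03 and 13.12 (0.64 ± 0.07, adjusted p = 5.83e-06).

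Between these steps, Mvd (mevalonate decarboxylase) rose by 0.86 ± 0.12 and Fdps (farnesyl diphosphate synthase) by 0.68 ± 0.07. Lss (lanosterol synthase) rose by 0.57 ± 0.10, Hsd17b7, a sterol ketone reductase, by 0.55 ± 0.10, and Mvk (mevalonate kinase) by 0.50 ± 0.12. Dhcr7, the last enzyme of the pathway, rose by 0.38 ± 0.08 and Nsdhl, a sterol dehydrogenase, by 0.29 ± 0.07. The calls of Mvk, Dhcr7 and Nsdhl were lost when some of the arrays were left out, among them wild-type replicate 1 in all 3 cases, and the pathway's count was then 7, against 8 to 10 without another array. Idi1 (0.37), Cyp51 (0.29), Pmvk (0.14), Tm7sf2 (0.01) and Ebp (-0.05) did not pass.

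The regulators of the pathway moved less. Of 10 measured genes of sterol regulation 1 passed: Scarb1, the HDL receptor, differed by 0.40 ± 0.11 (adjusted p = 0.0335, and up to 0.373 over the alternatives, being lost without either wild-type array or SHP-/- replicate 2). Srebf2, the transcription factor that drives the pathway, differed by 0.14 and Insig1, a sterol-sensing inhibitor, by 0.25. Fatty acid synthesis did not follow, with 1 of 16 genes higher (Elovl5, an elongase, 0.29 ± 0.08, adjusted p = 0.0289, lost without wild-type replicate 1 or either SHP-/- array, up to 0.246) and Fasn at 0.27. Across the study's 8 groups the 5-week wild-type group had the lowest mean in 8 of the 10 risen cholesterol genes (80%), against 44.6% of all 390 risen genes, and the 5-week SHP-/- group had the highest in none of the 10, against 37.7%.

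The sequence before the start of Hmgcs1 is shown because, of the risen cholesterol genes, only its promoter held the letters of the sterol element that SREBP binds. The letters TCACNCCAC were searched on both strands of RefSeq promoters of 300 bases, from 250 bases before a gene's start to 50 after it (GRCm38.p6). They lay in 1 of the 8 risen genes with a promoter in the table, in 0 of the 5 others, and in 1.24% of all 32851 promoters. A gene counted when any of its promoters held the letters, whereas this share is of single promoters. The promoter spans chr13:119690101-119690400 on the plus strand, and the match, in capitals, begins at position -137 counted from the start.
Hmgcs1: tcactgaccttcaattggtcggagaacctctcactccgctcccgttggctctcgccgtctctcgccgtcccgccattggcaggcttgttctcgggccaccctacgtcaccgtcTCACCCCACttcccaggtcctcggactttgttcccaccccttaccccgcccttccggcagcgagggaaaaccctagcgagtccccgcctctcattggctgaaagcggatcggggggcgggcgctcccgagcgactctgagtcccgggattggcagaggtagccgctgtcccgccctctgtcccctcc
Msmo1 and Sqle, which rose more, had no such letters in this window, from which nothing follows about SREBP.

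Asns led the targets of ATF4, the transcription factor of the amino acid response. Asns encodes asparagine synthetase, and its log2 intensity rose from 6.60 and 6.70 to 9.53 and 9.47, a gap of 2.85 ± 0.12 or 7.22-fold (adjusted p = 7.21e-12). Vldlr went from 5.32 and 5.78 to 6.56 and 6.58 (1.02 ± 0.13). Nupr1, a stress-induced chromatin protein, went from 5.22 and 5.80 to 6.44 and 6.26 (0.84 ± 0.16, adjusted p = 0.00166). In these 3 genes both SHP-/- arrays lay above both wild-type arrays, although wild-type duplicates of Vldlr and Nupr1 lay far apart. Cth, the cystathionine lyase of cysteine synthesis, rose by 0.71 ± 0.16 (adjusted p = 0.00857) and Trib3, a pseudokinase, by 0.35 ± 0.09 (adjusted p = 0.022).

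The rise was not shared by the whole list. Of 17 measured ATF4 targets 5 rose and 1 fell, with a median of 0.14. Cebpb, a bZIP transcription factor, fell by 0.41 ± 0.08 (adjusted p = 0.00247). Ddit3 (-0.39), Atf5 (-0.23), Aars (-0.05) and Chac1 (0.02) did not pass, nor did Atf4 itself (0.29). The count of risen targets was 2 without wild-type replicate 1, 4 without wild-type replicate 2 and 3 without either SHP-/- array, the lost calls being those of Nupr1 (adjusted p up to 0.0532), Cth (up to 0.0958) and Trib3 (up to 0.18). Of 14 ER stress genes 11 had a positive difference, with a median of 0.22. The calls went both ways, with 2 higher, led by Creld2, an ER-resident stress protein (1.12 ± 0.08, adjusted p = 1.5e-08), and 2 lower, led by Herpud1, a factor of ER-associated degradation (-1.11 ± 0.08, adjusted p = 1.24e-08). The other fall, of Edem1 (-0.49), lost its call without any of the 4 arrays (adjusted p up to 0.203).

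Promoters of the risen ATF4 targets are printed because all 4 that the table held contained the letters TGATGNAA, the core of the amino acid response element. The same letters, searched on both strands, lay in 3 of the 10 other measured targets with a promoter (Gars, Chac1 and Aars). They lay in 2.23% of the 7811 promoters of tested genes and in 3.97% of all 32851. A gene counted when any of its promoters held the letters, whereas these shares are of single promoters. Vldlr also had a promoter without the letters, which is not shown. The list was made of reported ATF4 targets, so its members are no independent sample for these letters, and a match is a description, not a binding site. Capitals mark the matched letters, which lie on the gene's own strand in Asns, beginning at position -23, and on the opposite strand in Vldlr (from -200), Nupr1 (from -110) and Trib3 (from 15 after the start). The windows are chr6:7693160-7693459 (minus strand), chr19:27216770-27217069 (plus), chr7:126625421-126625720 (minus) and chr2:152344011-152344310 (minus).
Asns: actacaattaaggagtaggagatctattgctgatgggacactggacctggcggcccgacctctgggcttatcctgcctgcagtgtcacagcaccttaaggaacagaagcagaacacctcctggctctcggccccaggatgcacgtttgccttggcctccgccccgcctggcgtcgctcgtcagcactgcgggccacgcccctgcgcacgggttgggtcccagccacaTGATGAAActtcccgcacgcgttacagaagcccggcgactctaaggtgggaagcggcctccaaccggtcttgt
Vldlr: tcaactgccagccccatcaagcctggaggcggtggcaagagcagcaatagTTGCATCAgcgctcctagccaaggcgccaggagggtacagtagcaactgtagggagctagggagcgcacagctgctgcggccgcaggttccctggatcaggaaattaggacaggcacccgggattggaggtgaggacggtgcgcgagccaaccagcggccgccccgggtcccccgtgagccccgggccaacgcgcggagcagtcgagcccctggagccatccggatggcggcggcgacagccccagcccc
Nupr1: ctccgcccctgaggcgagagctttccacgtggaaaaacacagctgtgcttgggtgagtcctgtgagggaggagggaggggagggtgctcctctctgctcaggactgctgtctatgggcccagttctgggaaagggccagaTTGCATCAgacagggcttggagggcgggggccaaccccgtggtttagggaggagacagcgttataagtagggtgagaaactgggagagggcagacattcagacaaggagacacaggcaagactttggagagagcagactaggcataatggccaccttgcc
Trib3: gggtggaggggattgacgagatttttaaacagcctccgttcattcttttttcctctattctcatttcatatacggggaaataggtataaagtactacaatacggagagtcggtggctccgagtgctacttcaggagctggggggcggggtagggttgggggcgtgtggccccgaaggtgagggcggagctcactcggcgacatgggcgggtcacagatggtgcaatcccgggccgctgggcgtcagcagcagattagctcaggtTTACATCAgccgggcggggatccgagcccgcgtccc
Cyp7a1 and Cth are named only, with no promoter shown.

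Outside the markers of other tissues, the largest rise was that of Cish, a suppressor of cytokine signalling that STAT5 induces. Cish went from 5.88 and 5.81 on the wild-type arrays to 8.83 and 8.86 on the SHP-/- arrays, a rise of 3.00 ± 0.09 (adjusted p = 7.84e-14). Socs2, another STAT5-induced suppressor, rose by 0.92 ± 0.12 (adjusted p = 5.66e-05) and Socs3, which STAT3 induces, by 0.94 ± 0.13 (adjusted p = 8.12e-05). Csad, the cysteine sulfinic acid decarboxylase that makes taurine for bile acid conjugation, went from 10.68 and 10.56 to 12.44 and 12.50 (1.85 ± 0.10, 3.61-fold, adjusted p = 1.72e-10). In Cish and Csad the groups lay apart by many times the gap between duplicates.

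Further rises were those of Dnaic1, an axonemal dynein chain (2.38 ± 0.12), Smoc2, a matricellular protein (2.25 ± 0.10), Tmem51, a membrane protein (1.74 ± 0.11), and Cxcl1, a neutrophil chemokine (1.65 ± 0.12). Mmd2, a progestin receptor family protein, rose by 1.57 ± 0.09 and Prxl2b, a prostaglandin F synthase, by 1.53 ± 0.10. Extl1, a glycosyltransferase of heparan sulfate, and Crybb3, a crystallin, were detected on no wild-type array and were at least 2.64-fold and at least 2.50-fold higher in SHP-/- livers. All of these calls held in every alternative run, leaving out each array included.

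The largest fall was that of Pnrc2, a nuclear receptor coactivator that also acts in mRNA decay. It went from 8.33 and 8.41 in wild type to 5.47 and 5.19 in SHP-/- livers (-3.05 ± 0.15, 8.27-fold, adjusted p = 9.87e-11). Olig1, a bHLH transcription factor of the oligodendrocyte lineage, went from 7.21 and 7.18 to 4.81 and 4.87 (-2.36 ± 0.12, adjusted p = 1.46e-10), where only 1 of the SHP-/- arrays detected it. Serpina12, the serpin vaspin, went from 10.46 and 10.44 to 8.51 and 8.44 (-1.97 ± 0.09, 3.92-fold, adjusted p = 2.89e-11). In all 3 genes the groups lay far apart.

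Cdkn1a, the cell cycle inhibitor p21, went from 7.60 and 7.77 to 6.23 and 5.97 (-1.59 ± 0.12, adjusted p = 3.02e-08). Noct, the clock-controlled phosphatase nocturnin, fell by 1.56 ± 0.11 and Cyp2c55, a cytochrome P450 induced through PXR and CAR, by 1.55 ± 0.13. Other large falls were those of Necap2, an endocytosis factor (-2.21 ± 0.12), Cib3, a calcium-binding protein (-2.19 ± 0.12), Eya3, a transcription coactivator (-1.92 ± 0.13), Treh, the trehalase (-1.72 ± 0.18), Xkr8, a phospholipid scramblase (-1.55 ± 0.15), and Bsdc1 (-1.49 ± 0.11). These calls also held in every alternative.

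**Figure D2:**
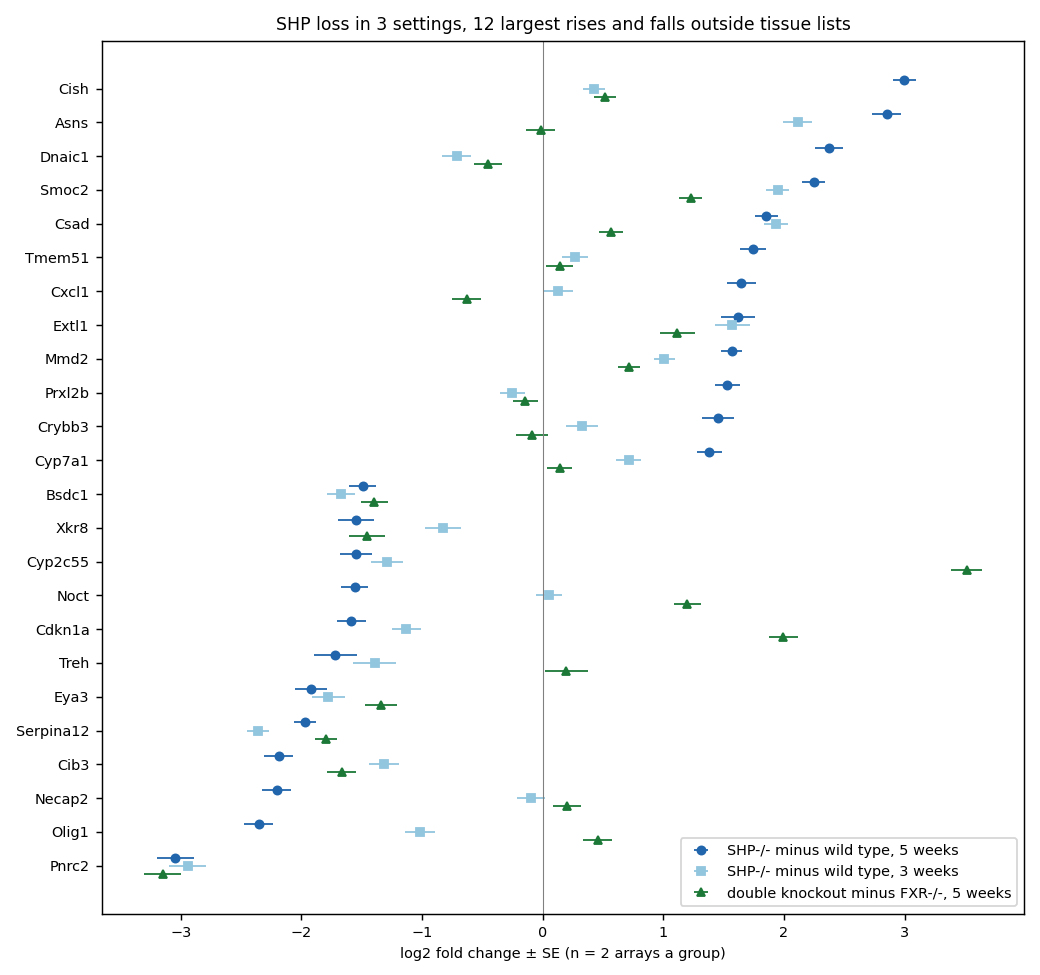
Log2 fold change (horizontal axis, ± SE, n = 2 arrays a group) of the 12 largest rises and 12 largest falls outside the tissue marker lists, for SHP-/- minus wild type at 5 weeks (circles) and 3 weeks (squares) and for the double knockout minus FXR-/- at 5 weeks (triangles). Pnrc2, Serpina12, Eya3 and Bsdc1 fell in all 3 settings, whereas Cdkn1a fell with SHP loss at both ages and was higher in the double knockout than in FXR-/- livers.

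Of 25 measured nuclear receptors and partners 5 fell and Nr1h4 alone rose, against 4.15% lower and 5.25% higher among all genes. Over the whole list 12 of the 25 had a positive difference, and the median was -0.09. Ppargc1a, the coactivator of gluconeogenesis, went from 7.49 and 7.55 to 6.81 and 6.78 (-0.73 ± 0.09, adjusted p = 3.3e-05). Foxo1, a transcription factor that insulin switches off, went from 7.21 and 7.35 to 6.59 and 6.53 (-0.72 ± 0.11, adjusted p = 0.000258). Pparg, the lipid-storage receptor, fell by 0.93 ± 0.14 and Nr1d2, a clock repressor, by 0.55 ± 0.12, the latter not called without wild-type replicate 2 or SHP-/- replicate 1 (adjusted p up to 0.1). Pparg was not detected on all 4 arrays, and its difference ran from -1.13 to -0.38 over the alternatives. Among receptors that SHP is known to bind, Hnf4a (-0.25), Nr5a2 (-0.25) and Nr1h3 (LXR-alpha, 0.15) did not pass.

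Of 15 measured genes of gluconeogenesis and amino acid breakdown 5 fell and none rose, with a median of -0.24. Among all genes 4.15% fell and 5.25% rose. Pck1, the cytosolic PEP carboxykinase, went from 8.98 and 9.12 to 8.12 and 8.29 (-0.85 ± 0.15, adjusted p = 0.0008). Serpina12 and Ppargc1a, given above, are the other large falls of this list, and neither is an enzyme of the pathway. G6pc, the glucose-6-phosphatase, and Pcx, the pyruvate carboxylase, fell by 0.31 and 0.35 with all arrays. The list's count was 3 without any of the 4 arrays, and Pcx lost its call in each of those cases (adjusted p up to 0.213). Fbp1 (0.11), Igfbp1 (0.16) and Tdo2 (-0.42) did not pass.

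PPAR-alpha targets gave no common direction. Of 15 measured genes of fatty acid oxidation 2 fell, Angptl4, an inhibitor of lipoprotein lipase (-1.20 ± 0.08, adjusted p = 5.03e-09), and Cyp4a10, an omega-hydroxylase (-0.56 ± 0.07, adjusted p = 3.61e-05). The related Cyp4a14 rose by 0.46 ± 0.08 (adjusted p = 0.000503).

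Genes of drug and glutathione metabolism fell more often than they rose. Of 20 measured CAR and PXR targets 8 fell and 2 rose, with a median of -0.23. Of 16 NRF2 targets 5 fell and 1 rose, with a median of -0.26. Among all genes 4.15% fell and 5.25% rose. Gsta1 and Gsta2 are members of both lists, so their falls count in each and the counts are not independent. Besides Cyp2c55, Cyp2b10, the standard CAR target, went from 6.89 and 6.83 to 5.74 and 5.91 (-1.03 ± 0.15, adjusted p = 0.00014). Its neighbour in the family, Cyp2b9, went the other way, from 5.16 and 5.34 to 6.73 and 6.43 (1.33 ± 0.10, adjusted p = 5.72e-08). Both are related genes of 1 cluster, and whether their probes cross-hybridize was not tested.

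The glutathione transferase Gsta2 fell by 0.90 ± 0.12 (adjusted p = 5.33e-05), its paralog Gsta1 by 0.78 ± 0.15 (adjusted p = 0.00192) and Ephx1, the microsomal epoxide hydrolase, by 0.83 ± 0.09 (adjusted p = 5.95e-06). Nqo1 (0.05), Gclm (-0.22) and Cyp3a11 (-0.09), widely used readouts of NRF2 and PXR, did not pass. Without any of the 4 arrays the CAR and PXR list had 5 or 6 falls and 1 rise.

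**Figure D3:**
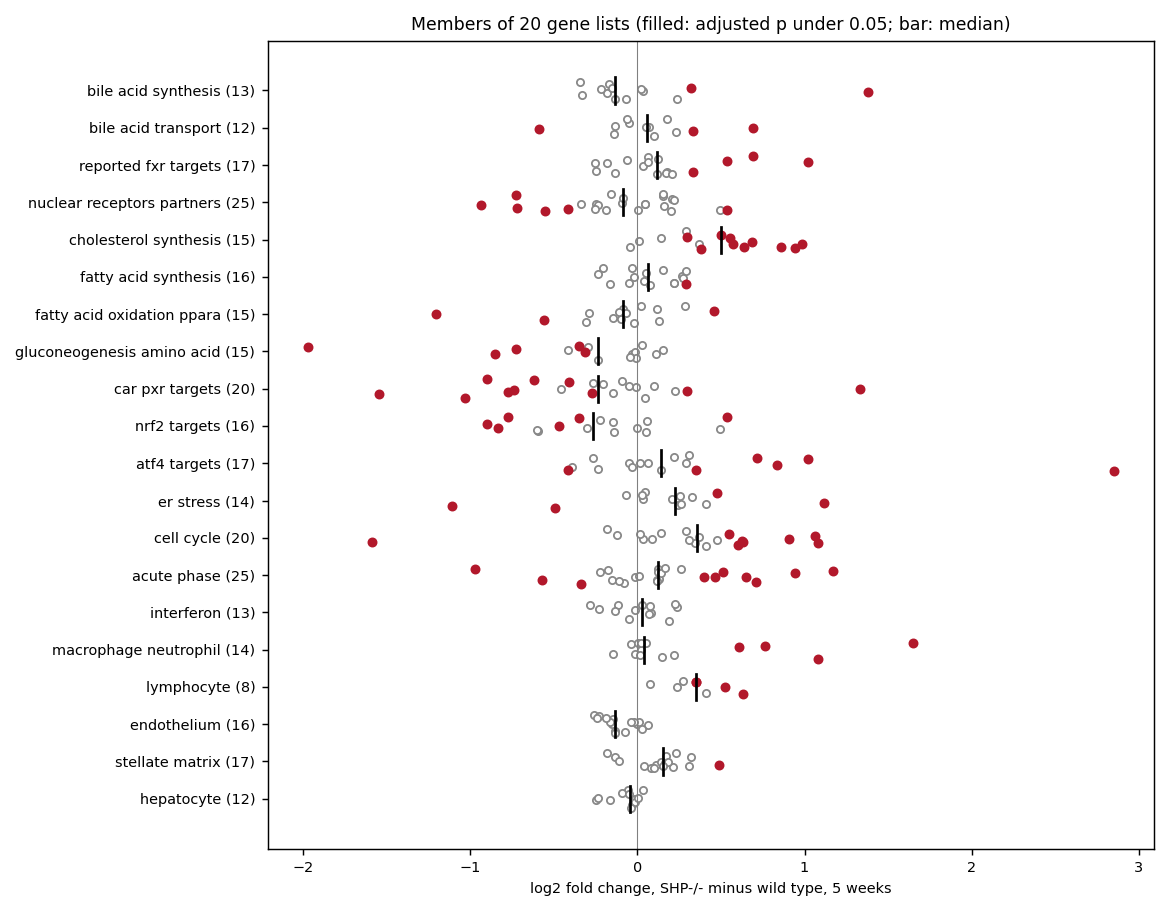
Log2 fold change of SHP-/- minus wild type at 5 weeks (horizontal axis) for each measured member of 20 gene lists, with the number measured in brackets; filled points had an adjusted p under 0.05 and bars are list medians. Cholesterol synthesis had 10 of 15 members filled on the right, CAR and PXR targets had 8 of 20 filled on the left, and no hepatocyte, interferon or endothelium gene was filled.

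Cell cycle genes tended upward. Of 20 measured genes 7 rose, among them Plk1, a mitotic kinase (0.91 ± 0.16), and Prc1, a spindle protein (1.06 ± 0.18). Cdc20, a mitotic activator, was detected on neither wild-type array and was at least 1.74-fold higher (adjusted p = 4.82e-05). It entered only through the SHP-/- arrays, so its direction was fixed by the filter. The only fall was that of Cdkn1a. The list's median was 0.36, or 0.30 with its 3 genes undetected in a group set to their bounds. Pcna (-0.12), Ccnd1 (-0.18) and Rrm2 (0.01) did not pass. Since the filter favoured the direction of such undetected genes, the list's count and median are a description and no support.

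Of 25 acute phase genes 7 rose and 3 fell, against 5.25% higher and 4.15% lower among all genes. Saa2, a serum amyloid, went from 7.33 and 7.04 to 8.35 and 8.37 (1.17 ± 0.12, adjusted p = 1.27e-06) and Orm2, an acid glycoprotein, rose by 0.71 ± 0.09 (adjusted p = 1.61e-05). Hamp2, a hepcidin, went from 12.47 and 12.51 to 11.55 and 11.48 (-0.97 ± 0.09, adjusted p = 5.5e-07). Fgg (0.12), Hp (-0.11) and Crp (-0.18) did not pass, and none of 13 interferon-response genes did. Of 14 markers of macrophages and neutrophils 4 rose, led by Cxcl1 and by Marco, a scavenger receptor (1.08 ± 0.11), while the Kupffer cell genes Clec4f (0.01), Vsig4 (0.01) and Adgre1 (-0.04) did not pass. Marco and the neutrophil gene S100a9, both among the risen, were detected on 1 wild-type array each and entered only through the SHP-/- arrays. In whole tissue, more cells of a type and more RNA per cell cannot be told apart.

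Few genes of other resident cell types passed, lymphocytes and blood aside. None of 16 endothelial genes passed, 1 of 17 stellate cell and matrix genes rose (Acta2, smooth muscle actin, 0.49 ± 0.11, not called without wild-type replicate 1 or SHP-/- replicate 1, adjusted p up to 0.102), and 1 of 5 cholangiocyte genes fell (Sox9, -0.31 ± 0.09, adjusted p = 0.0488, lost without any of the 4 arrays, up to 0.243). Of 8 lymphocyte genes 4 rose and all 8 had a positive difference, with a median of 0.35, and without single arrays the count of rises was 0 to 2. Of these 8, Cd3d was detected on no wild-type array and Cd79b and Ccl5 on 1, so they entered only through the SHP-/- arrays. The filter thus favoured their direction, and the 8 positive differences are a description and no support. Of 9 erythroid genes 4 rose and 1 fell. The globin Hba-a1 went from 12.86 and 12.71 in wild type to 13.28 and 13.29 (0.50 ± 0.08, adjusted p = 0.000252). Hbb-b2, another risen globin, was detected on no wild-type array and entered only through the SHP-/- arrays. Without single arrays 2 or 3 erythroid genes rose.

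Genes that respond to handling and time of day also moved. Of 11 clock genes 1 rose and 2 fell: Dbp, a clock output factor, went from 7.27 and 7.44 to 8.43 and 8.51 (1.11 ± 0.11, adjusted p = 2.02e-06), while Nr1d1 (0.16), Per2 (0.25) and Arntl (-0.09) did not pass. The falls of Clock (-0.33) and Nr1d2 were lost without some arrays (adjusted p up to 0.156). Of 10 immediate early and heat shock genes 3 rose and 3 fell, and without single arrays 0 or 1 rose and 1 or 2 fell. The time of tissue collection was not given in the labels, and the part of clock phase in the results was not tested. Of 11 male-biased genes 1 was higher (Cyp4a12a, 0.60 ± 0.09) and 2 lower, while 2 of the 11 had a positive difference and the median was -0.27. Of 6 female-biased genes 2 were higher (Cyp2b9 and Prom1) and 2 lower (Cyp2b10 and Cyp2a4), with a median of -0.02. Prom1 (0.56) was not called without wild-type replicate 1 or SHP-/- replicate 1 (adjusted p up to 0.112).

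The largest changes of all were in genes of tissues other than liver. Of 35 listed genes of the exocrine pancreas with a probe, 29 were detected on no wild-type array and 6 on no SHP-/- array. Of these genes 27 were measured, and 21 of the 27 were undetected in wild type and entered only through the SHP-/- arrays, so that their direction was fixed by the filter. With them 26 of 27 were higher, with a median of 2.58, or 2.07 with the 21 set to their bounds, which is a description and no support. Of the 6 that both wild-type arrays detected, 5 were higher (Cela2a, Cel, Spink1, Cela1 and Amy2a5, by 0.78 to 4.95) and 1 lower. Ctrb1, chymotrypsinogen B, was undetected in wild type, with 4.33 and 4.29, and stood at 10.64 and 10.66 on the SHP-/- arrays, at least 53.5-fold higher (adjusted p = 3.12e-17). Cela2a, a pancreatic elastase, went from 5.78 and 5.89 to 10.81 and 10.76, a 31.0-fold rise (adjusted p = 1.66e-15). The colipase Clps was at least 9.83-fold and the lipase-related Pnliprp1 at least 14.4-fold higher. The member that fell, Aqp8 (-1.20), a water channel, is also a gene of hepatocytes.

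The pancreatic signal was in both SHP-/- arrays alike, and no single array carried it. The summed unnormalized signal of the 27 genes came to 16070 and 17850 with SHP-/- against 5827 and 5830 with wild type. The other 5-week groups stood at 5866 to 6678. At 3 weeks the order was the opposite, with 10047 to 10354 in wild type and 4726 to 4950 in SHP-/- livers. The mean normalized log2 intensity of these genes at 5 weeks was 7.75 to 7.78 with SHP-/- and 5.13 to 5.16 with wild type. It was 5.96 to 5.97 in 5-week FXR-/- livers and 5.30 to 5.31 in the 5-week double knockout. Of 12 endocrine pancreas genes with a probe, none was detected on both arrays of a group.

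Skeletal muscle genes were higher as well, with 22 of 24 passing and a median of 0.87. Myl1, a fast myosin light chain, went from 5.79 and 5.73 to 6.87 and 6.73 (1.04 ± 0.12, adjusted p = 7.43e-06), and Ckm, muscle creatine kinase, rose by 0.97 ± 0.14. Their summed signal was 8555 and 8990 in wild type and 18140 and 18832 in SHP-/- livers at 5 weeks. At 3 weeks it was lower in both genotypes, with 1133 to 1182 in wild type and 1917 to 2024 in SHP-/- livers. The list's median difference at 3 weeks was 0.65. The double knockout came close to SHP-/- at 5 weeks, with 15762 and 15771, and stood at 9700 and 10039 at 3 weeks, above 5-week wild type. FXR-/- livers had 1141 and 1171 at 5 weeks and 5295 and 5312 at 3 weeks. Both SHP-/- arrays lay above both wild-type arrays in each of these sums, whose part in the other results was not tested. Without the genes of the pancreas, gut, muscle, adipose and erythroid lists 614 of 7356 genes were called, 325 higher and 289 lower, an alternative chosen after the data were seen.

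**Figure D4:**
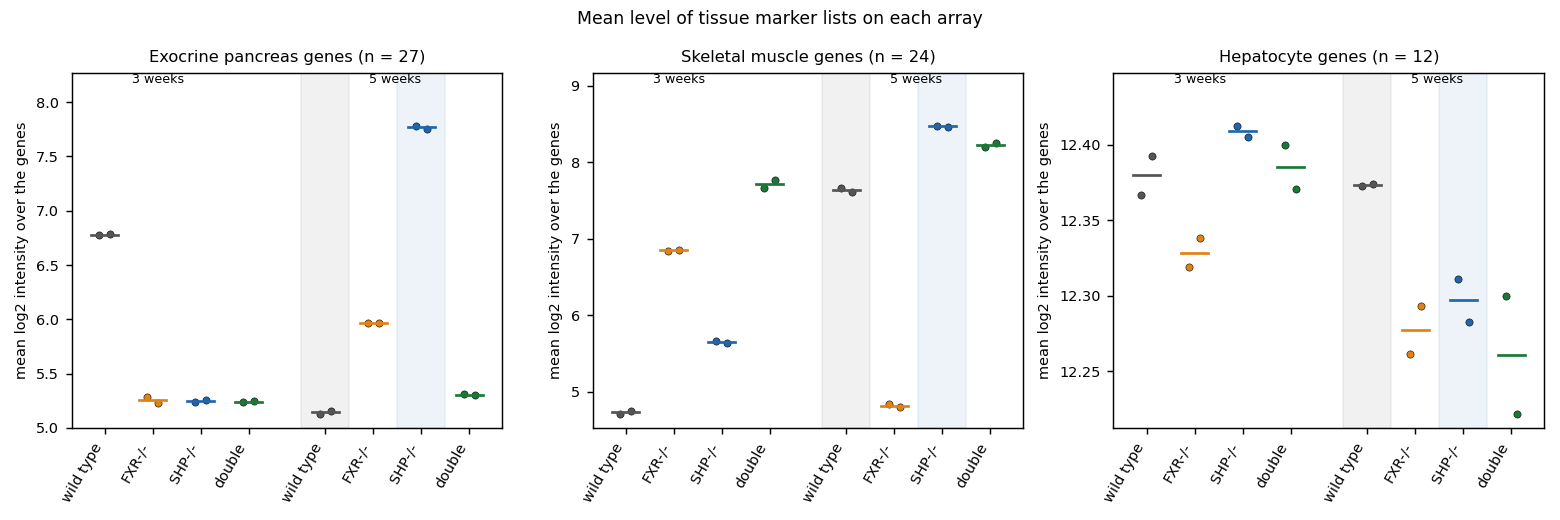
Mean log2 intensity (vertical axis) over the measured genes of 3 tissue marker lists on each of the 16 arrays, grouped by genotype and age, with points for arrays and bars for group means. Pancreas genes were highest in 5-week SHP-/- livers, muscle genes were also highest there, followed by the 5-week double knockout, with 5-week wild type and the 3-week double knockout next, and hepatocyte genes lay between 12.22 and 12.41 on all arrays.

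The loss of SHP at 5 weeks was set against 2 other contrasts of SHP loss, which use none of its arrays: SHP-/- minus wild type at 3 weeks and double knockout minus FXR-/- at 5 weeks. These called 875 (11.8%) and 1456 (19.6%) of the same 7424 genes. At 3 weeks 190 genes passed in the same direction as at 5 weeks, which is 27.2% of the 5-week calls and 21.7% of the 3-week calls, and 73 passed in the opposite direction. In livers without FXR 208 passed in the same direction, 29.8% and 14.3% of the respective calls, and 131 in the opposite.

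The difference of the SHP effect between ages, tested directly, passed for 554 genes (7.46%), 287 with a more positive effect at 5 weeks (3.87%) and 267 with a more negative one (3.6%). Age and slide cannot be told apart in this test, since 3-week arrays lay on another slide. It passed for 324 to 368 genes when any of the 8 arrays was left out. Cyp7a1 rose at both ages, by 0.71 at 3 weeks, and the effect was larger at 5 weeks by 0.67 ± 0.15 (adjusted p = 0.00806). Cyp8b1 went the other way, with 0.99 at 3 weeks and a difference of -0.67 ± 0.12 (adjusted p = 0.00139). Of the cholesterol genes, Sqle and Msmo1 stood near wild type at 3 weeks (0.07 and 0.11), and the effect was larger at 5 weeks by 0.88 ± 0.15 and 0.87 ± 0.15 (adjusted p = 0.00131 and 0.0012).

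Cish rose by 0.42 at 3 weeks, from 7.77 and 7.76 to 8.09 and 8.28, and by 2.58 ± 0.13 more at 5 weeks (adjusted p = 9.83e-11). Socs2 fell by 1.69 at 3 weeks, so that the effects differed by 2.61 ± 0.18 (adjusted p = 9.13e-09). Cyp4a12a, a male-biased omega-hydroxylase, fell from 9.68 and 9.47 to 7.18 and 7.23 at 3 weeks and rose at 5 weeks, a difference of 2.97 ± 0.13 (adjusted p = 1.16e-11). Hamp2 and Cyp2b10 reversed the other way, with a rise at 3 weeks and a fall at 5 weeks (differences of -2.29 ± 0.13 and -2.12 ± 0.21). Csad rose by 1.94 at 3 weeks against 1.85 at 5 weeks, and this difference did not pass.

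Whether the SHP effect differed with and without FXR at 5 weeks was tested in the same way and passed for 981 genes (13.2%), 418 more positive with FXR (5.63%) and 563 more negative (7.58%). Cyp7a1 was already at 11.53 and 11.50 in FXR-/- livers and at 11.66 and 11.65 in the double knockout, so that SHP loss added 0.14 there (adjusted p = 0.388), and the effects differed by 1.24 ± 0.15 (adjusted p = 7.61e-06). Asns was at 9.04 and 8.88 in FXR-/- livers and at 8.90 and 8.98 in the double knockout (difference of effects 2.87 ± 0.17, adjusted p = 5.31e-10). In both genes the FXR-/- arrays lay above the wild-type arrays, and the double knockout did not pass against FXR-/- (0.14 and -0.02). The cholesterol genes Mvd and Fdps were lower in the double knockout than in FXR-/- livers, by -0.59 and -0.34, and their effects differed by 1.45 ± 0.17 and 1.02 ± 0.10.

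Other genes turned direction on the FXR-null background. Cdkn1a stood at 6.04 and 5.90 in FXR-/- livers and at 7.99 and 7.94 in the double knockout, a difference of effects of -3.58 ± 0.17 (adjusted p = 2.2e-11). Cyp2c55 stood at 5.83 and 5.94 against 9.57 and 9.23 (-5.06 ± 0.19, adjusted p = 9.24e-13). Noct was higher by 1.20 in the double knockout than in FXR-/- livers (-2.76 ± 0.15). Pnrc2, at 8.01 and 7.99 against 4.80 and 4.90, fell as it did with FXR present.

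Several of the genes that fell in every setting lie near Nr0b2 on chromosome 4. The windows used here were chosen after the data were seen, and gene order was taken from GRCm38.p6. Within 25 protein-coding genes on each side of Nr0b2, 8 of 20 tested genes were called at 5 weeks (40%), all of them lower. Within 50 genes 15 of 42 were called (35.7%) and within 100 genes 24 of 87 (27.6%), against 9.4% of all genes. Between 100 and 200 genes away the share was 17.9% of 28 toward the start of the chromosome and 20.7% of 29 toward its end, and beyond 200 genes it was 12% and 8.96%. Chromosome 4 as a whole had 72 of 464 genes called (15.5%), against 6.1% to 11.5% on each other chromosome. Its called genes include the pancreatic Cela2a and Cela3b, and the part of the pancreatic signal in these shares was not tested.

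Some of the neighbours were called in all 3 contrasts of SHP loss, which share no array. Within 100 genes 24 of 87 were called at 5 weeks, 23 at 3 weeks and 32 without FXR, and 12 (13.8%) in 1 direction in all 3, against 1.2% of all genes. Among these, Htr1d was undetected in both 3-week groups, so its call there compares signals at background. Pnrc2, 52 genes toward the end of the chromosome, had differences of -3.05, -2.94 and -3.15 in SHP-/- livers at 5 weeks, at 3 weeks and without FXR. Eya3, 23 genes toward the start, had -1.92 at 5 weeks and -1.34 without FXR, and at 3 weeks, where no SHP-/- array detected it, it was at least 3.07-fold lower. For Bsdc1, 74 genes toward the start, the 3 differences were -1.49, -1.67 and -1.40. Gpn2, a GTPase gene 2 places from Nr0b2, fell in all 3, by 0.99 at 5 weeks and by 1.20 at 3 weeks.

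Rises in all 3 contrasts were those of Extl1, Selenon, a selenoprotein of muscle (0.70, 0.61 and 0.64), and Fabp3, a fatty acid-binding protein of heart and muscle (0.92 at 5 weeks, and at least 2.61-fold and at least 30.8-fold higher at 3 weeks and without FXR, where the lower group was undetected). Htr1d, a serotonin receptor, was at least 1.63-fold higher at 5 weeks and at least 1.74-fold higher without FXR. Summed skeletal muscle signal, given above, was also higher in all 3 contrasts, and its part in the rises of Selenon and Fabp3 was not tested. Gpn2, Selenon and Htr1d were named after their values were seen. Necap2 and Tmem51, at 136 and 163 genes from Nr0b2, changed with SHP loss at 5 weeks but not at 3 weeks (-0.10 and 0.27) or without FXR (0.20 and 0.14). Whether DNA carried along with the targeted allele differs from wild type in this stretch was not tested. Without the genes within 100 of Nr0b2, 664 of 7337 genes were called.

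**Figure D5:**
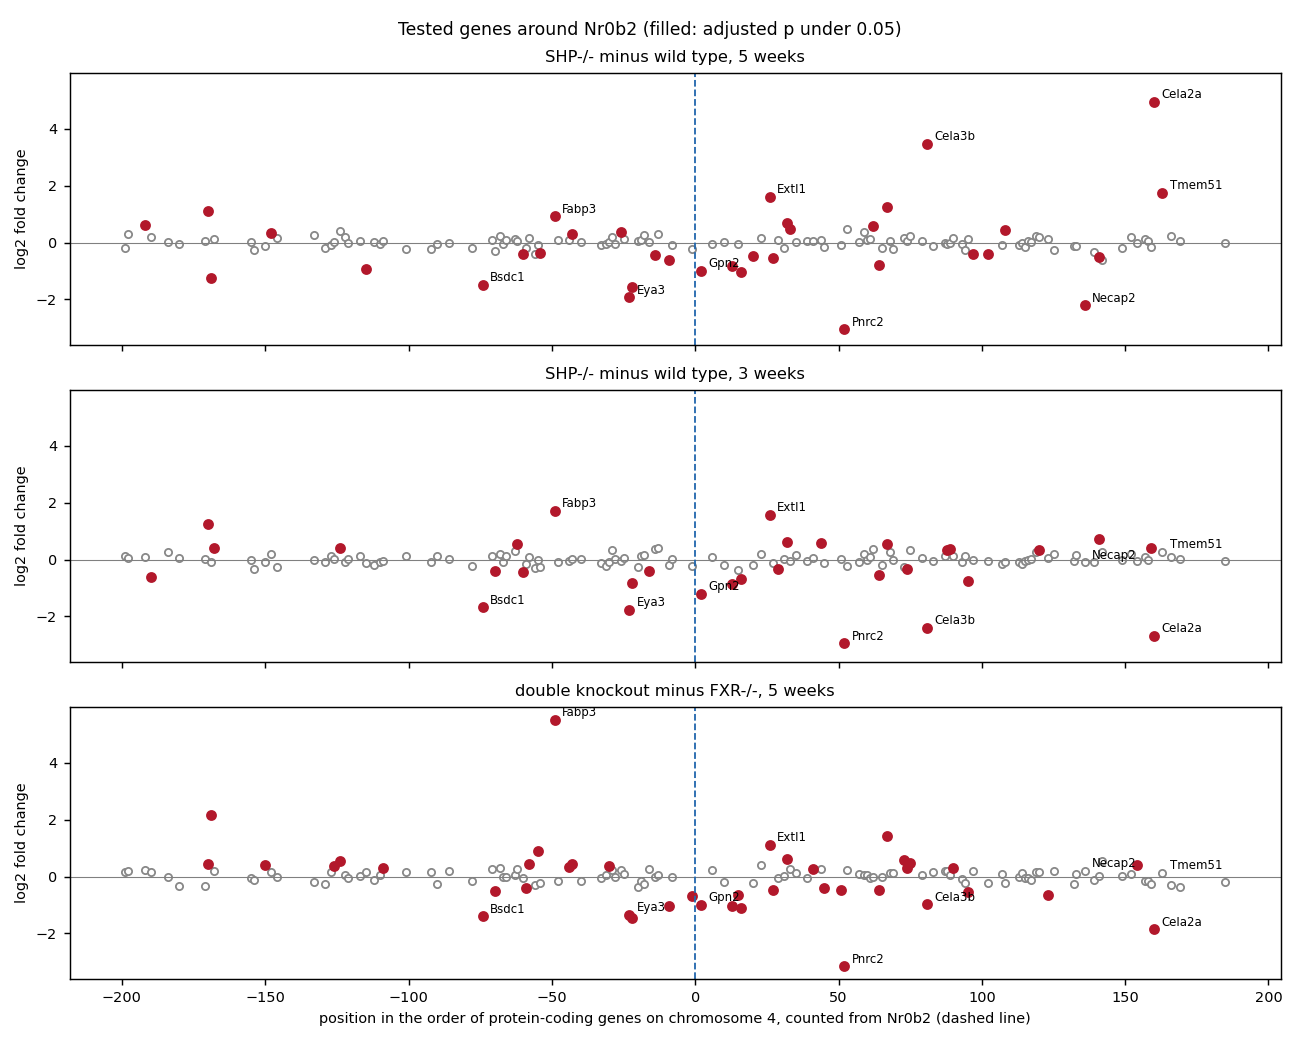
Log2 fold change (vertical axis) of tested genes by their place in the order of protein-coding genes on chromosome 4, counted from Nr0b2 (dashed line), in 3 contrasts of SHP loss that share no array; filled points had an adjusted p under 0.05. Pnrc2, Eya3, Bsdc1 and Gpn2 fell and Extl1 and Fabp3 rose in all 3 panels, whereas the pancreatic genes Cela2a and Cela3b rose only in the top panel and fell in the others.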

How the data were processed

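Total RNA of mouse liver was amplified, labelled with biotin and hybridized to 16 bead arrays, per the labels. The authors deposited an unnormalized table with, for every probe and array, a mean intensity over beads, the standard error of that intensity and a detection p-value, per the file headers. BeadStudio wrote it (BSGX 3.2.3) with neither normalization nor background subtraction. Its 16 columns of bead numbers were not used. The processed table deposited by the authors holds log2 values with the same distribution on every array, ranked as the intensities are. Its transform and centring are unknown, and it served as an alternative.

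The function neqc (limma 3.58.1, R 4.3.3) subtracted background through negative controls inferred from detection p-values, added an offset of 16 and quantile normalized. A mean per group was fitted to all 16 arrays (lmFit, eBayes with a trend, 8 residual degrees of freedom), with Benjamini-Hochberg adjustment over 9975 probes. A gene undetected on both arrays of a group is given as a bound ("at least"), with the undetected arrays raised to the lowest signal detected on them. Summed signals of gene lists were taken from unnormalized intensities. The fit was tested on simulated data. Number of arrays limits the precision.

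Probes were named through the platform annotation: of 24613 probes 20984 had 1 symbol, 1 had several and 3628 had none. Of 1179 genes with several probes 88 had probes whose calls differed, none in opposite directions. The arrays name no genome build. RefSeq promoters and gene order come from GRCm38.p6. The comparison, the 34 gene lists and the rule for naming genes were chosen with earlier results of these data known. The rule took Nr0b2 and Nr1h4, the 12 largest rises and falls without overlap between groups, with and without tissue marker lists, and up to 4 called members per list (all of them for bile acids, nuclear receptors, sterols and ATF4 targets). It also took the 4 largest differences each way, and further members are given with values. Alternatives were other background corrections, normalizations, filters, sets of arrays, weights, a replicate block, probe averages and leaving out each array, besides 3 chosen after the data were seen.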

Additional observations from a re-analysis of the deposited data

Results flagged for a closer look

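The effect of SHP loss, as the log2 difference of SHP-/- minus wild type, was compared between 5 and 3 weeks and, at 5 weeks, between livers with and without FXR, in the same limma fit. Of 46 genes looked at, 30 differed between ages and 37 between FXR backgrounds at an adjusted p under 0.05. They were the largest changes outside the tissue lists, the called genes of bile acid and cholesterol synthesis, and the largest differences themselves, so their share is not read against all genes. Values below are the differences of both effects on the log2 scale, and the causes were not tested.

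More positive at 5 than at 3 weeks were the effects on the gastric gene Gkn3 (4.57), Dnaic1 (3.09), Cyp4a12a (2.97), Socs2 (2.61) and Cish (2.58). Gkn3 did not pass at 5 weeks (-0.02) and was 4.59 lower in SHP-/- than in wild-type livers at 3 weeks, where the wild-type arrays also held the highest gastric signal of all groups. Prxl2b (1.78), Cxcl1 (1.52), Tmem51 (1.48), Asns (0.74), Cyp2c39 (0.71), Cyp7a1 (0.67) and Mmd2 (0.56) followed. Of the cholesterol genes, Sqle (0.88), Msmo1 (0.87), Mvk (0.62), Hsd17b7 (0.56), Hmgcs1 (0.51) and Fdps (0.50) had larger effects at 5 weeks. The effects on Hamp2 (-2.29), Cyp2b10 (-2.12), Necap2 (-2.11), Chrna4 (-2.02), Noct (-1.61) and Olig1 (-1.34) were more negative at 5 weeks. The same held for Cib3 (-0.88), Xkr8 (-0.72), Cyp8b1 (-0.67) and Cyp2b9 (-0.55).

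With FXR present the effects were more positive than without it for Cyp2c39 (5.70), Abhd1 (4.32), Asns (2.87), Dnaic1 (2.83), Cish (2.48), Socs2 (2.32) and Cxcl1 (2.28). Cyp2c39 was 4.59 lower in the double knockout than in FXR-/- livers and rose by 1.10 with SHP loss alone. Smaller differences were those of Cyp4a12a (1.69), Prxl2b (1.67), Tmem51 (1.61), Csad (1.29), Cyp7a1 (1.24), Smoc2 (1.02), Chrna4 (1.01), Mmd2 (0.85) and Cyp8b1 (0.40). The cholesterol genes Mvd (1.45), Sqle (1.11), Mvk (1.05), Msmo1 (1.02), Fdps (1.02), Hsd17b7 (0.87), Lss (0.77), Nsdhl (0.63) and Hmgcs1 (0.42) also had more positive effects with FXR. More negative with FXR were Cyp2c55 (-5.06), Erdr1 (-4.99), Cyp2b9 (-4.65), Fabp3 (-4.60), Cdkn1a (-3.58), Olig1 (-2.81), Noct (-2.76), Necap2 (-2.41), Cyp2b10 (-2.34), Treh (-1.92) and Hamp2 (-0.59). Cyp2b9 and Fabp3 were undetected in FXR-/- livers and at least 39.6-fold and at least 30.8-fold higher in the double knockout, and Olig1 was undetected in both of those groups. The sizes for 2 further genes are fitted values with no exact size behind them, since 1 group in each was undetected. Crybb3 (1.13 between ages and 1.54 between FXR backgrounds) was detected on neither 5-week wild-type array. Fabp3 (-0.80 between ages) was detected on neither 3-week wild-type array, and the same limit holds for Cyp2b9 (-4.65), Fabp3 (-4.60) and Olig1 (-2.81) between FXR backgrounds.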

How the results depend on the processing

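No called gene among the 121 named genes turned its direction under any alternative run, while the counts of called genes moved. Further genes given with values were not followed through the alternatives. Leaving out 1 array gave 395 to 412 called genes against 698, 228 to 250 higher and 159 to 167 lower, and 324 to 368 genes for the difference between ages against 554. Array weights gave 1121 called genes, 538 of them lower, and 954 for the difference between ages. Requiring 2-fold left 88 called genes (59 higher and 29 lower), 116 for the difference between ages and 268 for that between FXR backgrounds. Median-centred signals gave 589 lower genes, and higher genes made up 38.1% of the calls against 55.9%. The difference between ages passed for 950 genes with only the arrays of the groups compared and for 983 without the double-knockout arrays, which also gave 491 lower genes at 5 weeks, an alternative chosen after the data were seen. The authors' processed values gave 686 called genes. The replicate numbers did not pair the samples (correlation of deviations 0.04 between SHP-/- and wild type at 5 weeks). With the replicate number as a replicate block 631 genes were called, 483 for the difference between ages and 903 for that between FXR backgrounds. Of 121 named genes 86 were called in every alternative that gave a value and 34 lost the call in at least 1. The alternative with probes detected on all 4 arrays gave values for 93 of the 121. In simulated data 64.2% of 1.5-fold, 94% of 2-fold and 100% of 4-fold changes were recovered among 9975 probes. Changes under 1.5-fold were not simulated, and the share of probes changed was smaller than the share of genes called here. Recovery in the data themselves can therefore differ from these values, and probes near background give only bounds.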
